A study of Mus musculus with 24 samples.

Results

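The genes described here are 37 interferon-stimulated genes, chosen by name from the 33034 genes of the deposited count table: 4 transcription regulators (Irf1, Irf7, Irf9 and Stat2) and 33 effectors in 7 role groups. Their counts were followed through 24 RNA-seq libraries of MOVAS cells, an immortalized mouse aortic smooth muscle line, in 8 groups of 3. WT cells received vehicle or rhCTHRC1, the protein under study. Cells of WT genotype given the ADAM9 inhibitor (labelled ADAM9i) received vehicle or rhCTHRC1 as well, and so did Rosa26-KO and Adam9-KO cells. CTHRC1 is a secreted glycoprotein that is made in injured arteries, ADAM9 is a membrane-anchored metalloprotease, and Rosa26 is a locus commonly targeted as a control for genome editing. The comparisons ask how rhCTHRC1 changed these genes in each background and whether that change differed when ADAM9 was inhibited or targeted. The labels do not give the dose, the duration, the inhibitor's identity or whether a knockout line was a clone or a pool. Nothing in the labels says that the 3 libraries of a group came from separate cultures, so p-values measure the spread between these libraries, which may be technical.

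Interferons bind receptors whose Janus kinases phosphorylate STAT proteins. STAT2 and IRF9 act in a complex that binds interferon-stimulated response elements (ISRE), while STAT dimers bind gamma-activated sequences (GAS). IRF7 is itself interferon-induced and amplifies the type I response, and IRF1 is an early factor that also acts at ISRE-like sequences. The effectors block viral RNA, protein synthesis or budding, or attack vacuoles that hold pathogens. Vascular smooth muscle cells respond to both type I interferons and interferon gamma.

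The members lie on 14 chromosomes of the GRCm38 annotation, and 19 of them sit in 7 clusters with gaps of at most 150 kb. The regulators lie at chr11:53770014-53777323 (Irf1, ENSMUSG00000018899), chr7:141262706-141266481 (Irf7, ENSMUSG00000025498), chr14:55603571-55610030 (Irf9, ENSMUSG00000002325) and chr10:128270559-128292849 (Stat2, ENSMUSG00000040033). Irf1 overlaps Gm17334 and Irf7 overlaps Phrf1 on the other strand, and Irf9 overlaps Rnf31 on the same strand. The largest cluster holds Ifit2, Ifit3, Ifit3b and Ifit1 at chr19:34550694-34650009. Promoter windows from RefSeq (build GRCm38.p6, 250 bases before to 50 after the gene's start) were on hand for 28 of the 37 members. They were searched on both strands, overlaps allowed, for an ISRE-like motif (GAAANNGAAA, or TTTCNNTTTC on the other strand) and a GAS-like motif (TTCNNNGAA, the same on both strands). The 4 windows shown are those of the ubiquitin-like modifier Isg15, the RNA-binding effector Ifit1 and the regulators Irf7 and Irf1, which hold different motif matches; capitals mark each match, and all are written 5′ to 3′ on the gene's own strand.
Isg15 promoter, chr4:156200769-156201068, minus strand: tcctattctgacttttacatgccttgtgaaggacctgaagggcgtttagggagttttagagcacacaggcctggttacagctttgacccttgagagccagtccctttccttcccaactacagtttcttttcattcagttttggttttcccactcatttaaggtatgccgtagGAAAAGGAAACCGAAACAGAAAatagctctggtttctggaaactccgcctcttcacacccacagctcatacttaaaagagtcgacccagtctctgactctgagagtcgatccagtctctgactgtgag
Ifit1 promoter, chr19:34640639-34640938, plus strand: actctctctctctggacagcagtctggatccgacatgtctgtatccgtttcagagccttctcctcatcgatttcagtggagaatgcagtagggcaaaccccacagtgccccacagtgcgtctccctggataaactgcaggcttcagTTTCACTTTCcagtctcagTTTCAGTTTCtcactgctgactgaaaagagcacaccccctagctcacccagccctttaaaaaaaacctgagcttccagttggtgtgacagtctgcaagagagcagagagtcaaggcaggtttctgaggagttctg
Irf7 promoter, chr7:141266375-141266674, minus strand: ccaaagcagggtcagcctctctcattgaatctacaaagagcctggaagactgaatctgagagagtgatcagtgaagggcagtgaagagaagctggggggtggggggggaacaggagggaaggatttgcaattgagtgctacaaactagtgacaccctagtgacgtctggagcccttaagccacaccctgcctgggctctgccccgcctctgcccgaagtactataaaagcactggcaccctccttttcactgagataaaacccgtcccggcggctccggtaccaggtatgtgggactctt
Irf1 promoter, chr11:53769764-53770063, plus strand: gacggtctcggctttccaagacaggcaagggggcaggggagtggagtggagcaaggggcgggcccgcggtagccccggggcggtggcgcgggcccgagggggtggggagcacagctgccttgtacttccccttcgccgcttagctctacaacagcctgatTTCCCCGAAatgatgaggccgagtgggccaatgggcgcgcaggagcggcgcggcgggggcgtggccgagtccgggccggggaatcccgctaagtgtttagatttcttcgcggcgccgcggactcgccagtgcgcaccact
The Isg15 window held 3 overlapping ISRE-like matches that begin 78, 72 and 66 bases before the start. The Ifit1 window held 2, beginning 104 and 85 bases before the start. The Irf1 window held 1 GAS-like match, beginning 90 bases before the start, and the Irf7 window held neither motif. Counting genes with a match in any of their windows, an ISRE-like match was present in 14 of 28 members (50%) and in 4.0% of all 27025 genes. A GAS-like match was present in 7 of 28 members (25%) and in 9.6% of all genes. A match describes letters only and is not a measured binding site.

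The libraries held 53135752 to 65833125 counts each, so 3 counts corresponded to 0.0446 to 0.0577 CPM, the count relative to library size after TMM scaling. The targeted gene, Adam9, read 229, 237 and 241 CPM in Rosa26-KO vehicle and 130, 136 and 150 CPM in Adam9-KO vehicle libraries, so its RNA was lower in the knockout but not absent (-0.78 ± 0.05 on the log2 scale, edgeR adjusted p = 3.59e-08). The labels do not say where the gene was edited, and counts can come from outside that stretch. Adam9 was also lower in ADAM9i than in WT vehicle (-0.61 ± 0.12, edgeR adjusted p = 0.00185), a difference that rests on the WT vehicle libraries. The WT vehicle libraries stood apart from the rest, at -114.5 to -119.3 on the first principal component of all genes against -7.2 to 54.3 in the other 21 libraries. The WT response and the members' differences that rest on them are therefore also given with other vehicle groups, whereas that of Adam9 is given against WT vehicle alone. WT libraries are also titled in a different way from the rest, and background and handling cannot be told apart between them. All 7 contractile smooth muscle markers had counts, although Myh11 stayed between 0 and 0.854 CPM. Their summed level was 279 to 340 CPM in WT vehicle and 143 to 154 with rhCTHRC1, 517 to 535 and 130 to 133 in Rosa26-KO, 566 to 602 and 478 to 519 in ADAM9i, and 518 to 542 and 432 to 528 in Adam9-KO. It was lower with rhCTHRC1 without overlap in WT, Rosa26-KO and ADAM9i cells. The 7 macrophage markers summed to 2.83 to 4.82 CPM in WT vehicle and 7.27 to 9.54 with rhCTHRC1. The sums were 3.61 to 5.06 and 5.12 to 7.35 in Rosa26-KO, and 3.33 to 4.67 and 5.26 to 16.7 in ADAM9i. In Adam9-KO they were 4.75 to 17.6 and 3.79 to 6.44. They were higher with rhCTHRC1 without overlap in WT, Rosa26-KO and ADAM9i cells. Ptprc and Adgre1 stayed under 1 CPM in every library, so the rest of each sum came from the other markers of that list. The 3 T cell markers summed to 0 to 0.196 CPM over all libraries. The 5 endothelial markers summed to 24.3 to 27.2 CPM in WT vehicle, 11.2 to 13.1 in WT rhCTHRC1, 2.46 to 2.99 in Rosa26-KO vehicle, 7.15 to 7.8 in Rosa26-KO rhCTHRC1 and 3.47 to 5.8 in the rest. The 4 plasmacytoid dendritic cell markers summed to 72.7 to 74.6 CPM in WT vehicle, 90 to 103 in WT rhCTHRC1, 87.5 to 101 in Rosa26-KO vehicle, 107 to 112 in Rosa26-KO rhCTHRC1 and 80.8 to 106 in the rest, mostly Tcf4 (63.1 to 96.3 CPM), while Siglech stayed between 0 and 0.0701 CPM, and the 4 epithelial markers summed to 0 to 0.995 CPM. The part of these markers in the results was not tested.

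All 37 members passed the count filter in every fit. Adding rhCTHRC1 raised nearly all of them where ADAM9 was untouched and none of them where it was inhibited or targeted. In WT cells 35 of 37 members rose and 0 fell, with a median log2 change of 1.73, and 25 of the 35 at least doubled; over all 18816 genes tested 63% were called and the median was 0.0325. In Rosa26-KO cells 35 of 37 rose and 0 fell, with a median of 1.5 (0.904 by limma on log2(FPKM + 1), a scale that understates the change of low genes), and 26 at least doubled; over all 18594 genes 45.2% were called and the median was 0.0309. With ADAM9i 0 rose and 6 fell, with a median of -0.27, where 3.98% of all genes were called with a median of -0.00202. The 6 were Irf7, Isg15, Oasl2, Gbp2, Ifi27 and Bst2; the count was 3 without ADAM9i vehicle library 3, and Isg15, Oasl2 and Gbp2 each lost the call without some single ADAM9i library, with adjusted p-values of 0.0523 to 0.122. In Adam9-KO cells 0 members changed, with a median of -0.06; by edgeR 0% of all genes were called there, 1387 of 18594 had an unadjusted p under 0.05, and DESeq2 called 37 of the 9219 genes it gave an adjusted p. In bulk RNA, fewer responding cells and less RNA per cell cannot be told apart.

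**Figure D1:**
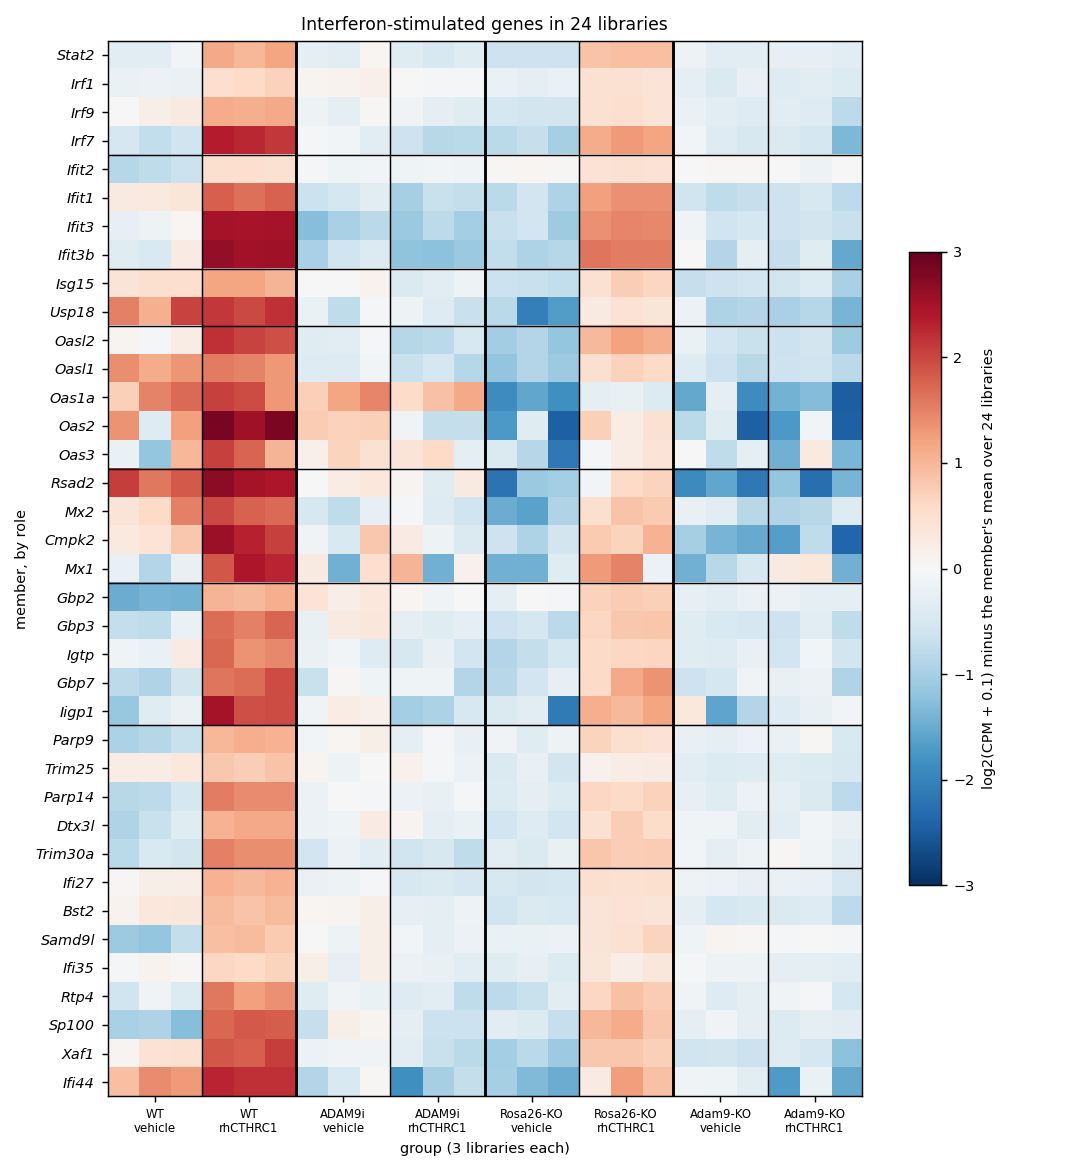
Level of each of the 37 members (rows, grouped by role) in each of the 24 libraries (columns, 3 per group), as log2(CPM + 0.1) minus that member's mean over all libraries. The 3 WT rhCTHRC1 columns are the reddest in every row by group mean, the 3 Rosa26-KO rhCTHRC1 columns come next for most rows, and the ADAM9i and Adam9-KO columns show no such rise with rhCTHRC1.

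The summed level of all 37 members went from 628.3 ± 43.6 CPM (SD, n = 3 here and below) to 1523 ± 38.2 CPM in WT cells and from 483.2 ± 8.66 to 1028 ± 24.4 CPM in Rosa26-KO cells. In ADAM9i cells the sum was 621.8 ± 39.7 CPM with vehicle and 530.9 ± 6.01 CPM with rhCTHRC1. In Adam9-KO cells it was 537.7 ± 19.8 and 509.4 ± 39.5 CPM, within the spread between libraries. The group with the highest mean was WT rhCTHRC1 for each of the 37 members. The lowest mean was in Rosa26-KO vehicle for 19 members and in WT vehicle for 8.

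The vehicle and rhCTHRC1 libraries did not overlap for 34 members in WT cells, all higher with rhCTHRC1, where 69.3% of all genes tested did not overlap, 35.8% being higher. In Rosa26-KO cells they did not overlap for all 37, again higher, where 55.5% of all genes did not overlap, 28.1% being higher. With ADAM9i they did not overlap for 15 members, all lower, where 20.5% of all genes did not overlap, 9.47% being lower. In Adam9-KO cells they did not overlap for 2, both lower, where 11.5% of all genes did not overlap, 6.16% being lower. The 2 members that were not called in WT cells were the oligoadenylate synthetase Oas1a (0.45 ± 0.27) and its relative Oasl1. The 2 not called in Rosa26-KO cells were Oas2 (2.33 ± 1.27) and Oas3 (1.70 ± 0.92), both under 1 CPM in every library of that background. Mx1 was called in both backgrounds but lay near the counting floor, with group means of 0.0379 to 1.17 CPM. Apart from Mx1, the largest changes were those of Sp100, a nuclear body protein, in WT cells (2.88 ± 0.20) and of Ifit3b in Rosa26-KO cells (2.47 ± 0.25). The place of Sp100 rested on the WT vehicle libraries. Against Rosa26-KO vehicle its WT change was 2.30, and Oas2 had the largest apart from Mx1 (4.76). Against ADAM9i vehicle it was 1.91, and Ifit3 had the largest (3.51). Across the 37 members the WT and Rosa26-KO responses, which share no library, had a Pearson r of 0.402 and a Spearman rho of 0.321, given as a description of these genes.

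**Figure D2:**
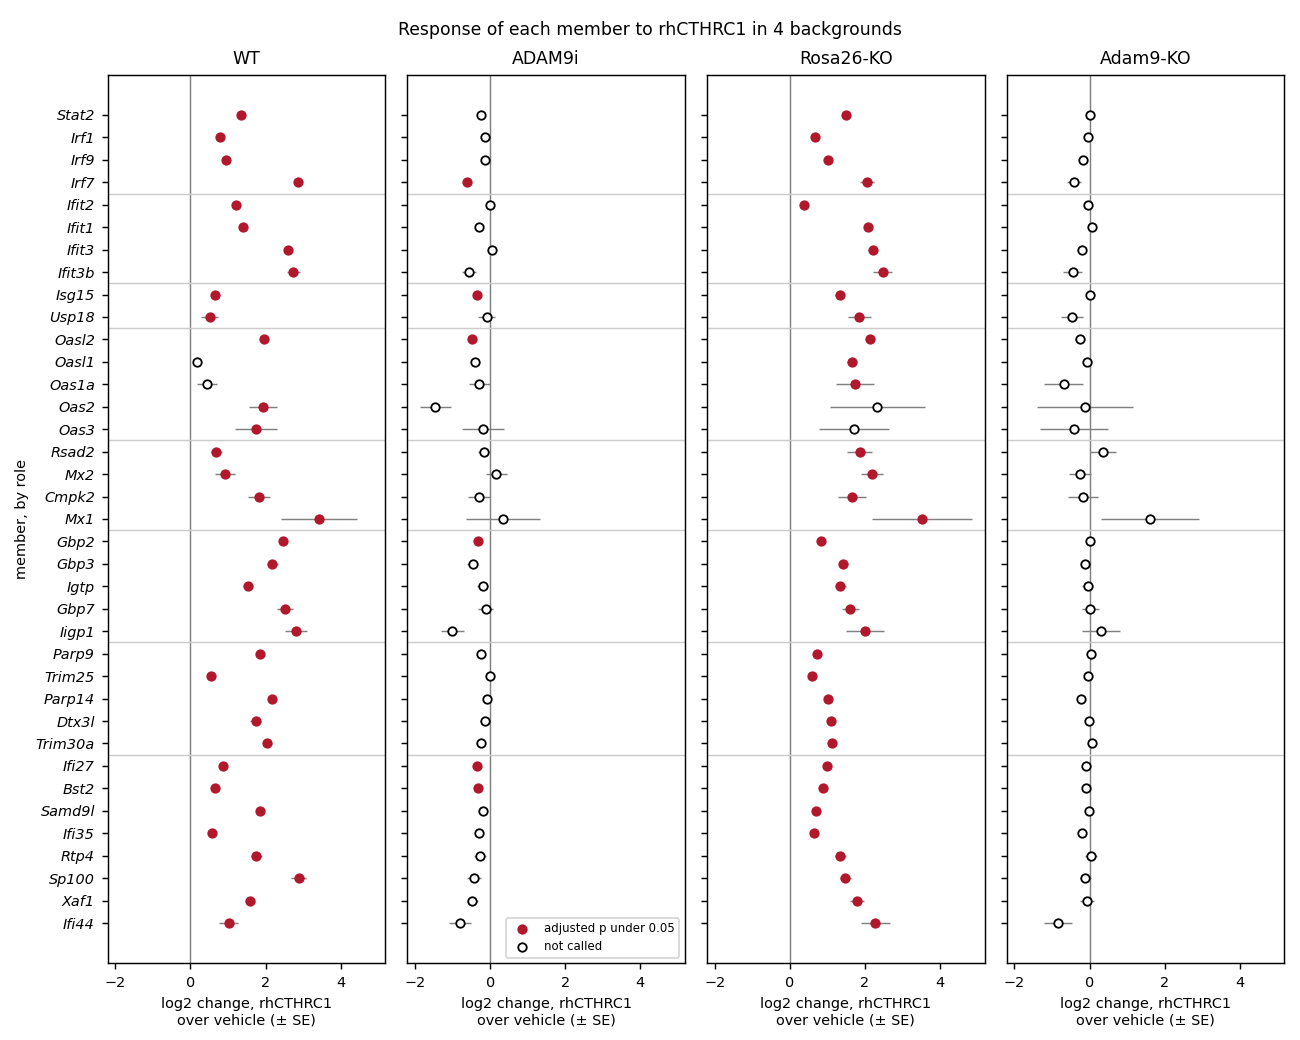
Log2 change from vehicle to rhCTHRC1 for each member (rows, grouped by role) in 4 panels, 1 per background; bars are standard errors of the edgeR fit and filled points have an adjusted p under 0.05. Filled points lie right of 0 in the WT and Rosa26-KO panels (35 members each), 6 lie left of 0 in the ADAM9i panel and none is filled in the Adam9-KO panel.

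The regulators Irf7, Stat2, Irf9 and Irf1 each rose in WT and Rosa26-KO cells. Irf7 read 6.2, 5.21 and 5.79 CPM in the WT vehicle libraries and 45.7, 42.5 and 38.3 CPM with rhCTHRC1. In Rosa26-KO cells it read 4.95, 5.41 and 4.35 CPM and then 19.3, 21.3 and 20 CPM. All 6 treated libraries lay above all 6 vehicle libraries. Irf7 rose 7.27-fold in WT cells (log2 2.86 ± 0.11, edgeR adjusted p = 1.93e-14) and 4.13-fold in Rosa26-KO cells (log2 2.04 ± 0.18, edgeR adjusted p = 8.54e-08). With ADAM9i the libraries went the other way, from 8.62, 8.25 and 6.95 CPM to 5.69, 4.92 and 5 CPM without overlap, and Irf7 fell by 0.61 ± 0.11 on the log2 scale (edgeR adjusted p = 0.00273). In Adam9-KO cells it read 8.33, 6.73 and 6.29 CPM with vehicle and 6.53, 6.04 and 3.37 CPM with rhCTHRC1, which overlapped (-0.41 ± 0.18, edgeR adjusted p = 0.644).

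Stat2, the partner of IRF9, read 43.5, 43.3 and 50.9 CPM in WT vehicle and 120, 109 and 123 CPM in WT rhCTHRC1. The Rosa26-KO libraries read 35.5, 35.5 and 35.5 CPM and then 98.8, 101 and 101 CPM. Both steps were without overlap, 2.53-fold in WT cells (edgeR adjusted p = 7.79e-09) and 2.83-fold in Rosa26-KO cells (edgeR adjusted p = 1.12e-13). In ADAM9i cells Stat2 read 44.7, 43.5 and 56.1 CPM with vehicle and 42.3, 38.7 and 42 CPM with rhCTHRC1. In Adam9-KO cells it read 48.5, 43.4 and 42.8 CPM and 45.6, 45.8 and 42.8 CPM. The ADAM9i libraries were lower with rhCTHRC1 without overlap and the Adam9-KO libraries overlapped, and neither passed the test (-0.23 ± 0.09, edgeR adjusted p = 0.233, and 0.00 ± 0.05, edgeR adjusted p = 0.996).

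Irf9, the DNA-binding part of that complex, read 34.9, 39.5 and 42.3 CPM in WT vehicle and 75.9, 74.7 and 77.5 CPM in WT rhCTHRC1. In Rosa26-KO cells the readings were 24.2, 23.9 and 24.1 CPM and 48.5, 49.5 and 47 CPM. Irf9 about doubled in both, by 0.95 ± 0.08 on the log2 scale in WT (edgeR adjusted p = 4.37e-09) and by 1.01 ± 0.09 in Rosa26-KO cells (edgeR adjusted p = 2.49e-08). ADAM9i libraries read 31.7, 29.1 and 36 CPM and 32.8, 29 and 27.1 CPM, and Adam9-KO libraries 30.6, 27.9 and 26.7 CPM and 28.2, 26.6 and 20.3 CPM. Those groups overlapped and were not called (-0.13 ± 0.08 and -0.17 ± 0.09).

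Irf1 had the smallest rise of the 4. It read 36.2, 36.9 and 36.3 CPM in WT vehicle and 59.6, 63.3 and 67.2 CPM with rhCTHRC1, and 36.3, 34.5 and 36.5 CPM and 57.5, 57 and 55.1 CPM in Rosa26-KO cells. The groups did not overlap in either background, and the rise was 1.72-fold (edgeR adjusted p = 8.47e-11) and 1.58-fold (edgeR adjusted p = 2.91e-08). ADAM9i libraries read 44.2, 44.6 and 46.6 CPM and then 41.3, 40.8 and 40.6 CPM, and Adam9-KO libraries 33.9, 30.7 and 35.5 CPM and 31.9, 33.6 and 31.4 CPM. The ADAM9i libraries were lower with rhCTHRC1 without overlap, but the change of -0.14 ± 0.05 was not called (edgeR adjusted p = 0.157), nor was that in Adam9-KO cells (-0.04 ± 0.06).

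**Figure D3:**
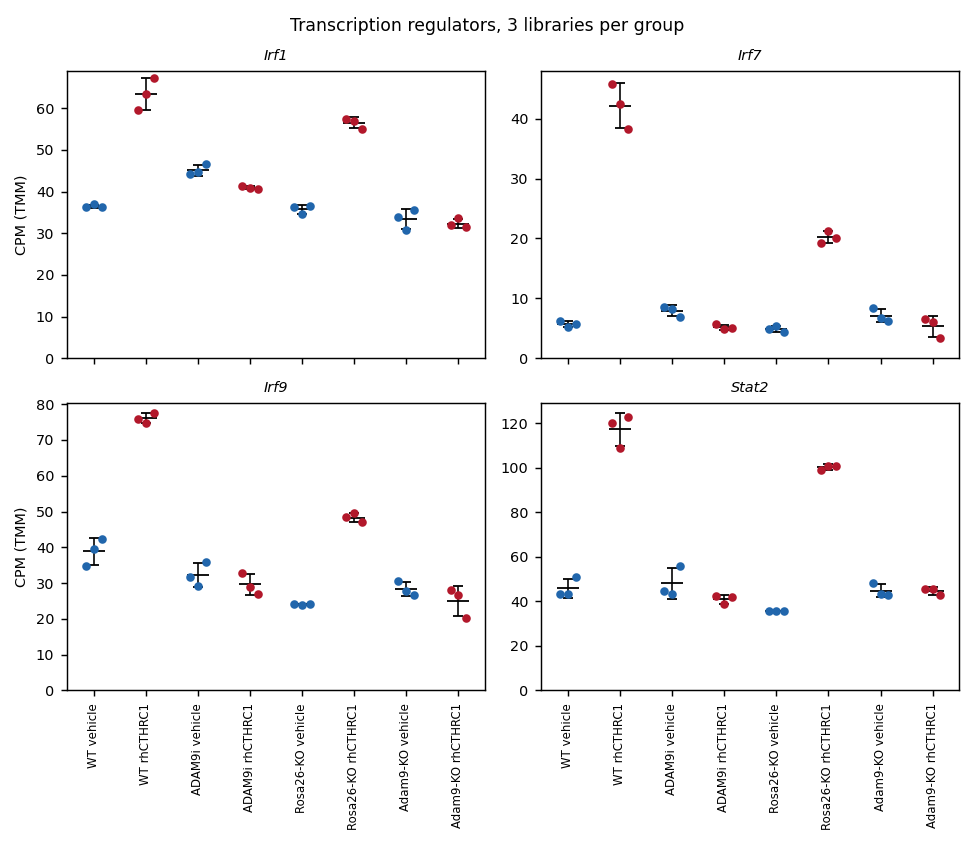
CPM of Irf1, Irf7, Irf9 and Stat2 in each library (points, blue for vehicle and red for rhCTHRC1), with the mean and SD of the 3 libraries of a group (bars). In each panel the WT and Rosa26-KO rhCTHRC1 points lie above all others, led by Irf7 at 38.3 to 45.7 CPM in WT rhCTHRC1 against 5.21 to 6.2 CPM in WT vehicle.

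The 4 IFIT proteins, which sequester RNA that lacks the marks of host messages, all rose in both backgrounds, with medians of 2.0 in WT and 2.15 in Rosa26-KO cells. The WT median was 2.88 against Rosa26-KO vehicle and 2.75 against ADAM9i vehicle. Ifit1 read 37.6, 38.1 and 39.8 CPM in WT vehicle and 108, 97 and 106 CPM with rhCTHRC1. The Rosa26-KO libraries went from 17.7, 20.9 and 16.3 CPM to 73, 80.8 and 80.3 CPM. It rose 2.66-fold (edgeR adjusted p = 6.27e-12) and 4.26-fold (edgeR adjusted p = 2.16e-12), with no overlap in either. The ADAM9i libraries read 19.8, 21.4 and 24.4 CPM and 15.5, 19.4 and 18.9 CPM, and the Adam9-KO libraries 20.5, 18.2 and 19 CPM and 20.2, 22 and 17.8 CPM. The ADAM9i libraries were lower without overlap, but neither change was called (-0.29 ± 0.08 and 0.06 ± 0.09).

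Ifit2 behaved differently between the backgrounds in size. It read 41.9, 44.6 and 48.3 CPM in WT vehicle and 105, 107 and 103 CPM with rhCTHRC1, a 2.31-fold rise (edgeR adjusted p = 4.72e-14). In Rosa26-KO cells it started at 77.7, 79.3 and 77.8 CPM and reached 102, 104 and 102 CPM, 1.31-fold (edgeR adjusted p = 5.67e-07). The treated levels of the 2 backgrounds differed by -0.03 ± 0.04 on the log2 scale and were not called apart (edgeR adjusted p = 0.659), whereas the vehicle levels differed by 0.80 ± 0.05 (edgeR adjusted p = 2.42e-15). With ADAM9i it read 72.7, 68.6 and 71.7 CPM and 69.1, 71 and 70.8 CPM, and in Adam9-KO cells 75.3, 77.1 and 78 CPM and 76.7, 68.4 and 76.3 CPM, all overlapping. Ifit3 rose by 2.58 ± 0.10 in WT and 2.21 ± 0.13 in Rosa26-KO cells, and Ifit3b by 2.74 ± 0.18 and 2.47 ± 0.25. In the GENCODE vM21 transcripts 31.7% of the 100-base stretches of Ifit3 and 27.4% of those of Ifit3b occur in each other, so how reads were split between these 2 is uncertain.

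Isg15, a ubiquitin-like protein that is attached to other proteins, and Usp18, the protease that removes it and also restrains the type I receptor, rose more in Rosa26-KO than in WT cells when each was set against its own vehicle. Isg15 read 18.5, 19.7 and 19.9 CPM in WT vehicle and 32.2, 31.9 and 28.5 CPM with rhCTHRC1, against 8.92, 8.8 and 8.3 CPM and 19.4, 23.6 and 22.1 CPM in Rosa26-KO cells. No treated library fell within the vehicle range. The rise was 1.58-fold (edgeR adjusted p = 8.96e-07) and 2.51-fold (edgeR adjusted p = 4.08e-08). In ADAM9i cells it went down from 14.2, 14.1 and 15.1 CPM to 10.4, 11.2 and 12.7 CPM, a fall by 0.34 ± 0.08 on the log2 scale (edgeR adjusted p = 0.0276). In Adam9-KO cells it read 8.57, 9.03 and 9.38 CPM and 9.58, 10.5 and 7.09 CPM, which overlapped (0.02 ± 0.12).

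Usp18 read 10.2, 7.51 and 14.6 CPM in WT vehicle, with 1 library inside the treated range of 15.6, 14.2 and 16.6 CPM. The WT rise of 0.51 ± 0.21 (edgeR adjusted p = 0.0493) rested on a narrow margin. It was 0.312 without WT vehicle library 2 and 0.794 without library 3, and the call was lost when any 1 of 7 of the 12 libraries of the fit was left out, with adjusted p-values of 0.0617 to 0.192. In Rosa26-KO cells Usp18 went from 1.96, 0.775 and 1.04 CPM to 4.29, 4.77 and 4.57 CPM, without overlap (1.85 ± 0.30, edgeR adjusted p = 3.9e-05). ADAM9i libraries read 3.04, 2.05 and 3.44 CPM and 3.18, 2.66 and 2.17 CPM, and Adam9-KO libraries 3.12, 1.82 and 1.86 CPM and 1.75, 1.89 and 1.29 CPM. Neither of those changes was called (-0.09 ± 0.23 and -0.46 ± 0.29).

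The active enzymes of the oligoadenylate synthetase family sense double-stranded RNA and make the messenger that activates RNase L. In WT cells 3 of 5 members rose and in Rosa26-KO cells 3 of 5, where 63% and 45.2% of all genes were called. The WT count was 5 against Rosa26-KO vehicle and 3 against ADAM9i vehicle, where 50.1% and 50.4% of all genes were called. Oasl2 read 18.6, 17 and 20.6 CPM in WT vehicle and 80.7, 72 and 67.5 CPM with rhCTHRC1. In Rosa26-KO cells the libraries read 8.59, 9.62 and 7.84 CPM and 35.1, 41.2 and 37.5 CPM. The rises, 3.88-fold (edgeR adjusted p = 5.36e-12) and 4.37-fold (edgeR adjusted p = 1.44e-09), were without overlap. With ADAM9i it went from 13.8, 14.2 and 17.1 CPM down to 9.75, 10.1 and 12.6 CPM and fell by 0.48 ± 0.11 (edgeR adjusted p = 0.0163). Adam9-KO libraries read 15.3, 11.8 and 11.1 CPM and 11.3, 12.1 and 8.44 CPM, overlapping (-0.26 ± 0.13).

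Oasl1, which in mice restrains the translation of Irf7, stood out by its WT vehicle level. It read 26.7, 22 and 25.5 CPM there and 30.4, 28.6 and 25.1 CPM in WT rhCTHRC1, and the overlapping groups were not called (0.16 ± 0.11, edgeR adjusted p = 0.193), although they were when scaled by library size alone (0.34, edgeR adjusted p = 0.00836) and by limma on log2(FPKM + 1) (0.32, limma adjusted p = 0.00727). In Rosa26-KO cells it went from 4.42, 5.52 and 4.74 CPM to 14.3, 16.5 and 15.4 CPM, 3.15-fold (edgeR adjusted p = 7.57e-09). ADAM9i libraries read 7.78, 7.77 and 9.54 CPM and 6.35, 7.01 and 5.62 CPM, and Adam9-KO libraries 7.82, 6.45 and 5.63 CPM and 6.53, 6.74 and 5.8 CPM. The ADAM9i libraries were lower with rhCTHRC1 without overlap and the Adam9-KO libraries overlapped, with no call (-0.40 ± 0.11 and -0.05 ± 0.13). Every other vehicle group lay below 10 CPM where WT vehicle lay above 20. Against Rosa26-KO vehicle the WT rhCTHRC1 libraries were higher by 2.52, and against ADAM9i vehicle by 1.74. Of Oas1a's 100-base stretches 40.9% occur in other genes, Oas1g first, so its counts are uncertain. In WT cells Oas1a was called by limma (0.42, limma adjusted p = 0.0471), and Oas2 lost its call in the fit of all 24 libraries (edgeR adjusted p = 0.0553).

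Viperin (Rsad2), which makes a chain-terminating nucleotide, its neighbour Cmpk2 and the dynamin-like GTPases Mx1 and Mx2 all rose in both backgrounds. Rsad2 read 15.5, 11 and 13.2 CPM in WT vehicle and 24, 20.8 and 19.8 CPM with rhCTHRC1. Rosa26-KO libraries read 0.706, 1.63 and 1.75 CPM and 3.44, 5.59 and 5.86 CPM. Both sets were apart, and the rise was 0.69 ± 0.15 (edgeR adjusted p = 0.000462) and 1.86 ± 0.34 on the log2 scale (edgeR adjusted p = 0.000148), although the Rosa26-KO level after treatment was below the WT level before it. ADAM9i libraries read 3.66, 4.24 and 4.51 CPM and 3.84, 2.78 and 4.41 CPM, and Adam9-KO libraries 0.888, 1.16 and 0.74 CPM and 1.57, 0.682 and 1.31 CPM. These overlapped, with changes of -0.17 ± 0.16 and 0.36 ± 0.35 that were not called.

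Mx2, annotated as a polymorphic pseudogene, was expressed at a low level. It read 2.1, 2.41 and 4.63 CPM in WT vehicle and 6.46, 5.61 and 5.33 CPM with rhCTHRC1 (0.91 ± 0.26, edgeR adjusted p = 0.00485), and 0.493, 0.452 and 0.795 CPM and 2.22, 2.92 and 2.77 CPM in Rosa26-KO cells (2.18 ± 0.30, edgeR adjusted p = 6.53e-06). The treated libraries lay above the vehicle libraries in both. ADAM9i libraries read 1.1, 0.888 and 1.31 CPM and 1.5, 1.17 and 1.01 CPM, and Adam9-KO libraries 1.34, 1.22 and 0.834 CPM and 0.8, 0.841 and 1.18 CPM, with overlap and no call (0.16 ± 0.28 and -0.26 ± 0.29). Mx1 read 0.134, 0.0495 and 0.135 CPM and 0.893, 1.37 and 1.24 CPM in WT, and 0, 0 and 0.114 CPM and 0.56, 0.664 and 0.143 CPM in Rosa26-KO cells. Its Rosa26-KO call (edgeR adjusted p = 0.0385) was lost when any 1 of 6 of the 12 libraries of that fit was left out, with adjusted p-values of 0.0526 to 0.137.

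The guanylate-binding proteins and immunity-related GTPases, which attack membranes around intracellular pathogens and are classic targets of interferon gamma, rose in both backgrounds, 5 of 5 each. Their median was 2.47 in WT and 1.42 in Rosa26-KO cells. The WT median was 2.31 against Rosa26-KO vehicle and 1.75 against ADAM9i vehicle. Gbp2 read 5.27, 5.64 and 5.5 CPM in WT vehicle and 30.2, 29.5 and 32.2 CPM with rhCTHRC1, a 5.54-fold rise (edgeR adjusted p = 5.73e-15). Readings in Rosa26-KO cells were 12.3, 14.8 and 14.6 CPM and 24.1, 25.5 and 24.7 CPM, 1.78-fold (edgeR adjusted p = 1.52e-07). Its WT vehicle libraries were the lowest of the 24, and the treated levels of the 2 backgrounds lay closer together than the vehicle levels. With ADAM9i it went from 19.8, 17.2 and 18.8 CPM to 15.6, 13.9 and 15.1 CPM and fell by 0.32 ± 0.08 (edgeR adjusted p = 0.0273), and in Adam9-KO cells it read 12.7, 11.8 and 13.1 CPM and 13.2, 12.3 and 12.2 CPM, overlapping (0.02 ± 0.08).

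Gbp3 read 7.37, 7.16 and 10.5 CPM in WT vehicle and 39, 34.6 and 41.1 CPM with rhCTHRC1. In Rosa26-KO cells the readings were 7.79, 8.36 and 6.87 CPM and 18.8, 21.2 and 21.7 CPM. Without overlap in either, Gbp3 rose 4.53-fold (edgeR adjusted p = 1.64e-09) and 2.68-fold (edgeR adjusted p = 8.99e-09). ADAM9i libraries read 10.4, 14.7 and 15.3 CPM and 10, 9.41 and 9.95 CPM, and Adam9-KO libraries 9.34, 8.83 and 8.53 CPM and 7.9, 9.55 and 7.08 CPM; the former were lower without overlap, with no call (-0.46 ± 0.15 and -0.11 ± 0.12). Igtp, Gbp7 and Iigp1 rose by 1.53 to 2.80 in WT and by 1.35 to 2.0 in Rosa26-KO cells.

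The enzymes of ADP-ribosylation and ubiquitination rose as a full set of 5 in both backgrounds, with medians of 1.85 in WT and 1.01 in Rosa26-KO cells. The WT median was 1.62 against Rosa26-KO vehicle and 1.11 against ADAM9i vehicle. Parp9, which works in a pair with the ubiquitin ligase Dtx3l, read 12, 12.8 and 14.6 CPM in WT vehicle and 46.5, 49.3 and 48 CPM with rhCTHRC1. Its Rosa26-KO readings were 21.6, 18 and 20.9 CPM and 36.7, 32.4 and 31.3 CPM. The rises of 3.62-fold (edgeR adjusted p = 4.56e-13) and 1.66-fold (edgeR adjusted p = 9.02e-06) were without overlap. ADAM9i libraries read 21.9, 24 and 25.9 CPM and 18.9, 22.3 and 19.8 CPM, and Adam9-KO libraries 19.9, 19.1 and 20.3 CPM and 20.1, 23.8 and 16.7 CPM. Neither change was called (-0.23 ± 0.08 and 0.04 ± 0.10). Parp9 and Dtx3l overlap on opposite strands, and whether the counting used strand is not given in the sources used here, so reads of the 2 may not be fully apart.

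Trim25, a ligase that activates the RNA sensor RIG-I, moved less than the rest of its group. It read 22.4, 22.6 and 24 CPM in WT vehicle and 33.9, 32.2 and 34.8 CPM with rhCTHRC1, and 14.1, 16.5 and 13.1 CPM and 20.9, 22.6 and 22.8 CPM in Rosa26-KO cells. Small as they were, the rises of 1.45-fold (edgeR adjusted p = 1.22e-05) and 1.52-fold (edgeR adjusted p = 1.05e-05) left the groups apart. ADAM9i libraries read 20.4, 17.3 and 19 CPM and 21, 18.4 and 16.9 CPM, and Adam9-KO libraries 15.3, 14.4 and 14.6 CPM and 14.9, 14.5 and 13.8 CPM, all overlapping (-0.01 ± 0.08 and -0.03 ± 0.09). Parp14, Dtx3l and Trim30a rose by 1.73 to 2.18 in WT and by 1.01 to 1.12 in Rosa26-KO cells.

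Of the 8 remaining effectors, all rose in both backgrounds. Ifi27, a small membrane protein found at mitochondria, read 74.4, 81.9 and 82.7 CPM in WT vehicle and 149, 141 and 149 CPM with rhCTHRC1. The Rosa26-KO libraries read 51.2, 49.2 and 49.9 CPM and 100, 98.2 and 101 CPM. It rose 1.82-fold (edgeR adjusted p = 7.07e-12) and 1.99-fold (edgeR adjusted p = 2.1e-10) without overlap. With ADAM9i it went from 63.2, 64.3 and 70.2 CPM down to 51.2, 53 and 50.4 CPM and fell by 0.36 ± 0.05 (edgeR adjusted p = 3e-04). In Adam9-KO cells it read 64.5, 63.4 and 60.7 CPM and 63.1, 61.9 and 51 CPM, with no call (-0.09 ± 0.06).

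Bst2, or tetherin, which holds budding virus at the cell surface, read 78, 90.1 and 92 CPM in WT vehicle and 140, 131 and 140 CPM with rhCTHRC1. Rosa26-KO libraries read 47.5, 53.7 and 53 CPM and 94.2, 98.2 and 94.1 CPM. The rises were 1.56-fold (edgeR adjusted p = 4.44e-09) and 1.86-fold (edgeR adjusted p = 3.62e-07), again without overlap. In ADAM9i cells Bst2 dropped from 75.3, 76 and 81.9 CPM to 61.4, 60.1 and 64.8 CPM and fell by 0.32 ± 0.06 (edgeR adjusted p = 0.00237). The Adam9-KO libraries read 58.8, 50 and 52.6 CPM and 53.4, 55 and 42 CPM, overlapping (-0.10 ± 0.09). Samd9l, Ifi35, Rtp4, Sp100, Xaf1 and Ifi44 rose by 0.57 to 2.88 in WT and by 0.64 to 2.27 in Rosa26-KO cells.

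**Figure D4:**
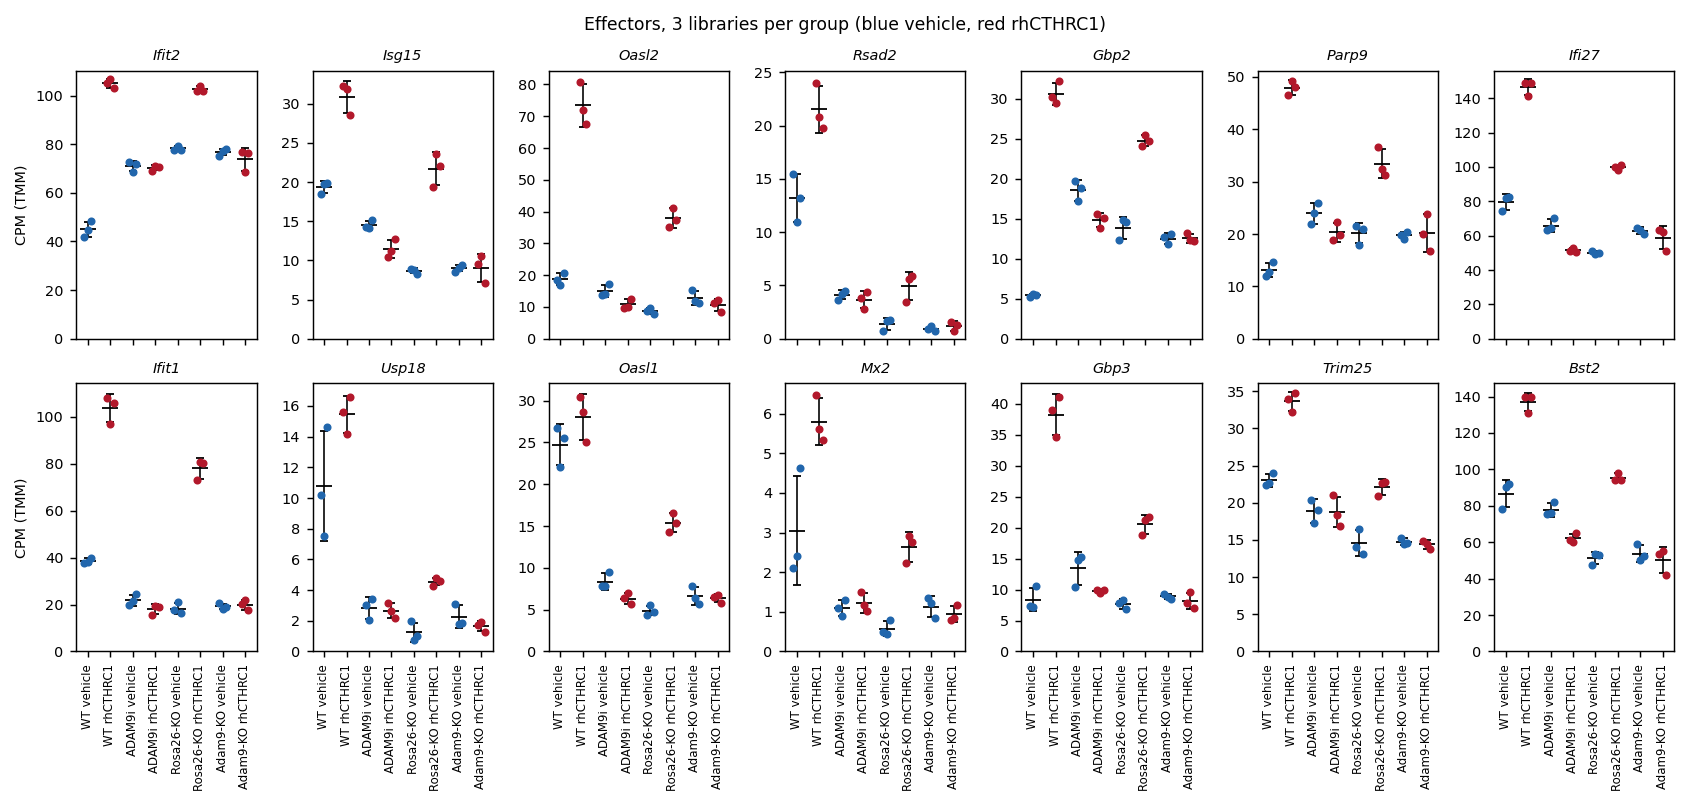
CPM of the 2 members of each effector group with the highest mean CPM in each library (points, blue for vehicle and red for rhCTHRC1), with group means and SD (bars, n = 3). Oasl1, Usp18, Rsad2 and Mx2 are higher in WT vehicle than in the other 3 vehicle groups, Gbp2, Ifit2 and Parp9 are lower there, and the rhCTHRC1 points rise above their vehicle points in Rosa26-KO but not in ADAM9i or Adam9-KO cells.

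Per length, on the deposited FPKM scale, the most abundant members were Bst2, with group means of 50.8 to 149 FPKM, Ifi27 at 30.4 to 97.9 FPKM and Isg15 at 11 to 43.1 FPKM. Ifit3 ranged from 3.2 to 40.0 FPKM. Irf1 (7.42 to 15.6), Irf7 (1.14 to 10.9), Irf9 (3.98 to 13.8) and Stat2 (5.33 to 19.4 FPKM) lay within the same order of magnitude of each other. Mx1 (0.009 to 0.297), Oas3 (0.015 to 0.179), Oas2 (0.026 to 0.78) and Iigp1 (0.09 to 0.889 FPKM) stayed below 1 FPKM in every group mean.

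Members with and without an ISRE-like match in the window rose alike in count. In WT cells 13 of 14 with a match rose, with a median of 1.64, and 13 of 14 without, with a median of 1.39. In Rosa26-KO cells it was 13 of 14 (1.55) with and 14 of 14 (1.29) without. The 7 members with a GAS-like match had medians of 0.78 in WT and 0.90 in Rosa26-KO cells, against 1.75 and 1.66 in the 21 without. These are descriptions of overlapping sets, and the differences between them were not tested.

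The response was smaller with ADAM9i than in WT cells for 33 of 37 members and larger for 0, by the test of the difference itself, with a median difference of -1.95; 56% of all genes were called in that test and their median difference was -0.04. It was smaller in Adam9-KO than in Rosa26-KO cells for 33 members and larger for 0, with a median of -1.54, where 37.9% of all genes were called with a median of -0.02. Both counts include all 4 regulators. With Rosa26-KO vehicle as the WT baseline the inhibitor test called 37 members, all smaller, with a median of -2.73 (42.7% of all genes called). With ADAM9i vehicle as that baseline the vehicle libraries cancel, and the contrast becomes that of the treated ADAM9i and WT groups. It is therefore no separate check of the difference of responses. In the fit of all 24 libraries that contrast called 35, all smaller, with a median of -1.96 (51.9% called). Of the 4 regulators Irf7 differed most, by -3.47 ± 0.15 with the inhibitor (edgeR adjusted p = 3.3e-13) and by -2.46 ± 0.26 with the knockout (edgeR adjusted p = 1.02e-06). Stat2 differed by -1.57 ± 0.13 and -1.50 ± 0.07, Irf9 by -1.08 ± 0.12 and -1.18 ± 0.12, and Irf1 by -0.92 ± 0.07 and -0.70 ± 0.08. Among effectors given in full, Gbp2 (-2.79 ± 0.12) and Gbp3 (-2.64 ± 0.21) differed most with the inhibitor and Mx2 (-2.44 ± 0.42) and Oasl2 (-2.38 ± 0.19) with the knockout. The place of Gbp2 and Gbp3 rested on the WT vehicle libraries, which enter the difference through the WT change. Against Rosa26-KO vehicle the WT change was 1.139 in Gbp2 and 2.316 in Gbp3, below 3.98 in Rsad2 and 3.623 in Usp18. Against ADAM9i vehicle the WT changes of Gbp2 and Gbp3 were 0.721 and 1.501, below 2.381 in Rsad2 and 2.442 in Usp18. The members not called with the inhibitor were Usp18 (-0.60 ± 0.32), Mx2 (-0.76 ± 0.38), Oas1a (-0.74 ± 0.38) and Mx1. Those not called with the knockout were Mx1, Oas2, Oas3 and Iigp1 (-1.70 ± 0.70). Every library count scaling tried left all 37 differences below 0 in both tests, although scaling by library size alone moved the all-gene median by -0.194 in the inhibitor test, by 0.179 in the WT response and by -0.138 in the treated ADAM9i and WT groups. All 37 members stayed above 0 in the WT and Rosa26-KO responses under each scaling.

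Treated groups were also compared directly, without the vehicle libraries. With rhCTHRC1, ADAM9i lay below WT for 37 of 37 members, all without overlap, with a median of -1.95 (of all genes 54.1% were called and 62.4% did not overlap, 31.8% being lower). Adam9-KO lay below Rosa26-KO for 34 of 37, with a median of -1.28 (40.6% called), and 35 members did not overlap, against 50.7% of all genes, 25.1% being lower. By limma on log2(FPKM + 1) that median was -0.808. Stat2 was lower by 1.51 ± 0.09 in the first and by 1.17 ± 0.05 in the second. Rosa26-KO itself lay below WT for 34 of 37 members, with a median of -0.84 (32.4% called), with Ifit2, Mx1 and Oas3 not called.

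Vehicle levels already differed between backgrounds, in both directions. Rosa26-KO vehicle lay above WT vehicle for 7 members and below it for 21 (53.7% of all genes called), with a median of -0.67, or -0.357 by limma on log2(FPKM + 1). Usp18 (-3.10 ± 0.30), Rsad2 (-3.27 ± 0.30), Mx2 (-2.39 ± 0.30) and Oasl1 (-2.34 ± 0.12) were lower in Rosa26-KO vehicle, and Gbp2 (1.35 ± 0.08), Ifit2 (0.80 ± 0.05) and Parp9 (0.62 ± 0.10) were higher. ADAM9i vehicle lay above WT vehicle for 11 members and below it for 15 (57.4% called). Gbp2 was again higher (1.76 ± 0.09) and Usp18 (-1.92 ± 0.23), Rsad2 (-1.68 ± 0.16) and Oasl1 (-1.57 ± 0.11) lower; both comparisons share the WT vehicle libraries. Adam9-KO vehicle lay above Rosa26-KO vehicle for 7 members and below it for 0 (15.2% called, a share near that of the members), with a median of 0.30. Those 7 were Stat2 (0.33 ± 0.05), Ifi27 (0.32 ± 0.06), Oasl2 (0.54 ± 0.14), Oasl1 (0.43 ± 0.13), Mx2 (0.95 ± 0.30), Dtx3l (0.32 ± 0.10) and Ifi44 (1.16 ± 0.38), and the count was 3 without Rosa26-KO vehicle library 1 or 3 or without Adam9-KO vehicle library 1.

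The response in Rosa26-KO cells was larger than in WT cells for 7 members and smaller for 11 (43.8% of all genes called, a share near that of the members). The 7 were Ifit1, Isg15, Usp18, Rsad2, Mx2, Oasl1 and Ifi44, and the differences ranged from 0.65 ± 0.14 for Isg15 to 1.47 ± 0.17 for Oasl1. Mx2 lost its call without WT vehicle library 3 (0.82) and Rsad2 without Rosa26-KO rhCTHRC1 library 3 (1.02). Among the 11 were Irf7 (-0.84 ± 0.22, edgeR adjusted p = 0.00219), Gbp2 (-1.65 ± 0.12), Parp9 (-1.14 ± 0.14) and Ifit2 (-0.83 ± 0.06). These counts rest on the WT vehicle libraries. With ADAM9i vehicle in their place 0 members had a larger and 4 a smaller response in Rosa26-KO cells, where 24.1% of all genes were called. With Rosa26-KO vehicle in their place the contrast becomes that of the treated groups, and the counts were 0 and 34, where 32.4% of all genes were called.

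Most of the WT calls were also made with another group's vehicle libraries. Against Rosa26-KO vehicle, the WT rhCTHRC1 libraries were higher for 37 of 37 members, with a median of 2.31 (50.1% of all genes called). Against ADAM9i vehicle they were higher for 34, with a median of 1.74 (50.4% called), and the members not called were Mx1, Oas3 and Oas1a.

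**Figure D5:**
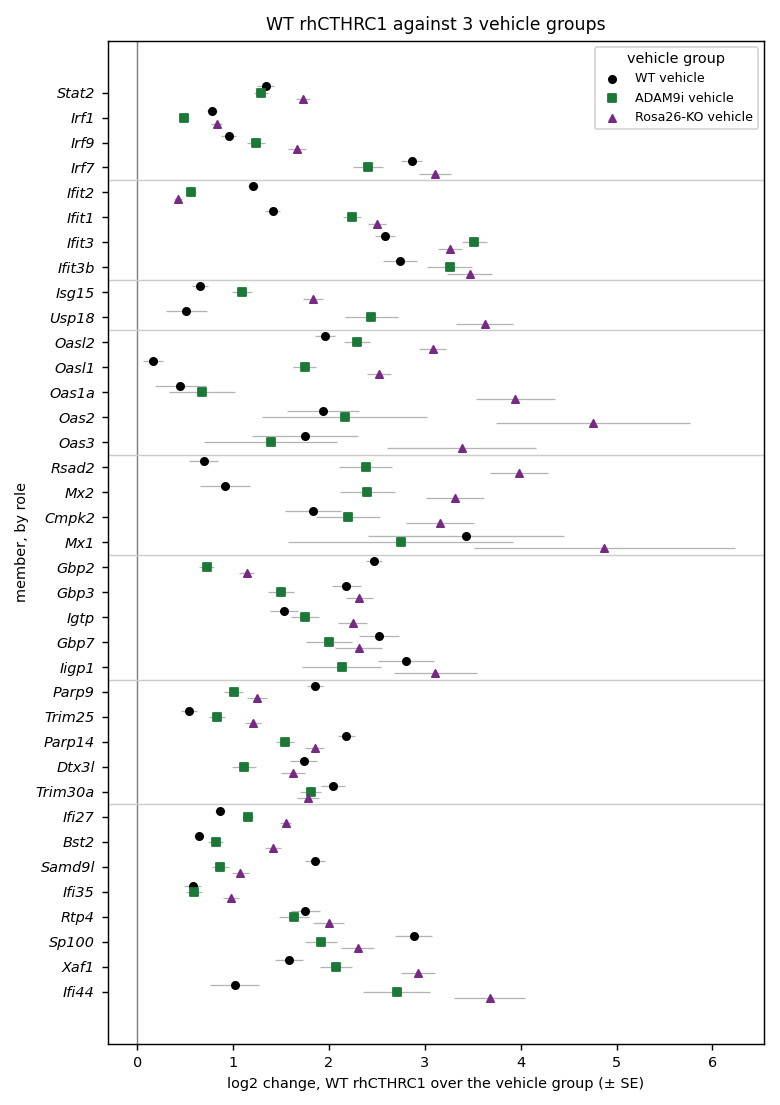
Log2 difference between the WT rhCTHRC1 libraries and each of 3 vehicle groups (black circles for WT, green squares for ADAM9i, purple triangles for Rosa26-KO) for each member, with standard errors. All points lie right of 0; Gbp2, Ifit2 and Parp9 have their largest value against WT vehicle, whereas Oasl1, Usp18 and Rsad2 have their smallest there.

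The rest of the pathway was followed through lists of ligands, receptors and JAK-STAT proteins, other interferon regulatory factors, restrainers and other interferon-stimulated genes. Of 20 interferon ligand genes 7 were in the count table, none passed the filter in the WT and ADAM9i fit, and only Ifne passed it in the knockout fit. Ifnb1, interferon beta, had 0 to 3 counts in every library, and Ifne had 11 to 17 counts in the Rosa26-KO rhCTHRC1 libraries against 0 to 7 in Rosa26-KO vehicle, with no call (edgeR adjusted p = 0.132). Counts of these lists are to be read against the shares of all genes called, 63% in WT, 45.2% in Rosa26-KO and 3.98% in ADAM9i cells. Of 11 receptor and JAK-STAT genes, 8 rose and 1 fell in WT cells. In Rosa26-KO cells 8 rose and 0 fell, and 0 were called with ADAM9i or in Adam9-KO cells.

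Tyk2, a kinase of the type I receptor, rose by 1.37 ± 0.06 in WT and 0.74 ± 0.06 in Rosa26-KO cells, and Ifnlr1, the lambda receptor chain, by 1.17 ± 0.17 and 0.52 ± 0.13. Against Rosa26-KO and ADAM9i vehicle the WT rhCTHRC1 level of Tyk2 was higher by 0.69 and 0.65. The list's WT counts were 10 and 0 against Rosa26-KO vehicle and 8 and 0 against ADAM9i vehicle. Of the other interferon regulatory factors, Irf3 (0.48 ± 0.06 and 0.23 ± 0.07) and Irf5 (1.11 ± 0.16 and 0.45 ± 0.11) rose in both backgrounds. These were 2 of the 4 tested in WT (50%) and 2 of the 5 tested in Rosa26-KO cells (40%), where 63% and 45.2% of all genes were called. Of 6 restrainers 4 rose and 2 fell in WT cells, against 1 and 2 in Rosa26-KO cells. The phosphatase Ptpn6 rose by 2.34 ± 0.20 and 0.80 ± 0.18, and Ptpn2, a phosphatase that acts on Janus kinases, fell by 0.90 ± 0.06 and 0.41 ± 0.06. Against Rosa26-KO vehicle the WT rhCTHRC1 libraries were higher in Ptpn6 by 1.39, and Ptpn2 was not called (-0.14 ± 0.06, edgeR adjusted p = 0.0658). Socs3, a feedback inhibitor of cytokine receptors, rose in WT cells (1.41 ± 0.07) but was not called in Rosa26-KO cells (-0.16 ± 0.07), and the responses differed by -1.59 ± 0.10 (edgeR adjusted p = 9.11e-14). With Rosa26-KO vehicle as baseline its WT change was 1.17 and with ADAM9i vehicle 0.86, and the counts of restrainers that were higher and lower were 4 and 1, and 3 and 1.

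Of 61 other interferon-stimulated genes, 58 were tested in the WT and ADAM9i fit and 57 in the knockout fit. In WT cells 53 rose and 3 fell; the Rosa26-KO counts were 49 and 3. Against Rosa26-KO vehicle the WT rhCTHRC1 libraries were higher for 52 and lower for 2 of 58, and against ADAM9i vehicle for 47 and 2, where 50.1% and 50.4% of all genes were called. With ADAM9i 1 rose and 6 fell, and in Adam9-KO cells 0 changed. Uba7, the enzyme that activates ISG15, rose by 3.79 ± 0.17 in WT and 1.57 ± 0.10 in Rosa26-KO cells, and Ifi27l2a, a relative of Ifi27, by 3.92 ± 0.31 and 2.08 ± 0.23. Against Rosa26-KO vehicle the WT changes of Uba7 and Ifi27l2a were 1.79 and 2.62, and against ADAM9i vehicle 1.49 and 1.85. Casp1, the inflammasome protease, had 0 counts in each WT vehicle library and 0.491, 0.368 and 0.201 CPM with rhCTHRC1. It read 0.411, 0.549 and 0.13 CPM in Rosa26-KO vehicle and 0.147, 0.197 and 0.526 CPM in ADAM9i vehicle, and against these the WT rhCTHRC1 libraries were not called different. The genes that went against the list were Lap3, an aminopeptidase (fell by 0.82 ± 0.04 and 0.58 ± 0.04), and Mlkl, the executor of necroptosis (fell by 0.28 ± 0.05 and 0.22 ± 0.05), in both backgrounds, with the RNA-editing enzyme Adar in WT cells (fell by 0.30 ± 0.04) and Daxx, a nuclear body protein, in Rosa26-KO cells (fell by 0.15 ± 0.06). Adar rose in Rosa26-KO cells (0.31 ± 0.06) and Daxx in WT cells (0.35 ± 0.04). The direction of Adar in WT cells rested on the WT vehicle libraries, since WT rhCTHRC1 was higher by 0.77 against Rosa26-KO vehicle and by 0.63 against ADAM9i vehicle. Daxx was not called against either (0.09 and 0.07). The response of this list was smaller for 51 genes and larger for 3 with ADAM9i than in WT cells, where 56% of all genes were called. It was smaller for 45 and larger for 2 in Adam9-KO than in Rosa26-KO cells, where 37.9% were called.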

How the data were processed

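Total RNA was sequenced from 24 libraries in 8 groups (TruSeq stranded total RNA kit, 150-base paired reads on a HiSeq, per the labels' protocols). HISAT2, StringTie, DESeq2 and the GRCm38 build are named in the submitters' processing notes, without versions. The deposited table held the authors' whole-number counts and FPKM values per gene. The annotation, the strand setting and the counting of pairs as 1 or 2 are not given in the sources consulted.

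The counts were tested with edgeR 4.0.16 (quasi-likelihood F test, robust, TMM scaling, filterByExpr) in R 4.3.3, with Benjamini-Hochberg adjustment over all genes tested and a threshold of 0.05. "Rose", "fell" and "called" mean an adjusted p under it. WT and ADAM9i libraries shared a fit of 12 libraries (18816 genes), Rosa26-KO and Adam9-KO libraries another (18594 genes), and Rosa26-KO was compared with WT in a fit of all 24 (19891 genes). This pairing of backgrounds was made here. Standard errors are the log2 change divided by the square root of F. The FPKM values were used for levels between genes. DESeq2 1.42.0 and limma 3.58.1, on log2(FPKM + 1), were alternatives, as were other scalings, no filter, a replicate block, other vehicle groups and leaving out each library. The fit was checked on simulated counts.

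The members and lists were chosen with earlier results of these data known. The 4 regulators and the 2 effectors of each role group with the highest mean CPM are given in full, the others by range and counts or where they are exceptions; at most 3 called genes of each pathway list with the largest changes are named, and genes that fell against their list were named after their values were seen. Libraries with the same replicate number did not deviate together (correlations of -0.103 to 0.087), so the numbers were not used as pairs. All pairs of libraries of a group differed by more than sampling noise (chi-square per degree of freedom 9.39 to 17.1). The values of 1 gene of the receptor list are not reported here.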

Additional observations from a re-analysis of the deposited data

Results flagged for a closer look

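The tests of the difference between responses passed the threshold for members as follows. Between ADAM9i and WT cells 33 members had a smaller response with the inhibitor (56% of all genes were called in that test), among them Irf7 (-3.47 on the log2 scale), Stat2 (-1.57), Irf9 (-1.08) and Irf1 (-0.92). Between Adam9-KO and Rosa26-KO cells 33 members had a smaller response in the knockout (37.9% of all genes called), among them Irf7 (-2.46), Stat2 (-1.50), Irf9 (-1.18) and Irf1 (-0.70). Between the control backgrounds 7 members had a larger and 11 a smaller response in Rosa26-KO than in WT cells. Of all genes 43.8% were called there, a share near that of the members. Of the regulators Irf7 alone was called (-0.83).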

How the results depend on the processing

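Depth limits Mx1, Oas2 and Oas3, which lay near the counting floor in some groups. In Rosa26-KO vehicle Oas2 and Oas3 had means of 0.13 and 0.125 CPM, against 3.56 and 1.32 CPM in WT rhCTHRC1. The smaller responses with ADAM9i or in Adam9-KO cells kept their direction for every member under the other scalings. Under the replicate block, which rests on numbers that did not pair the libraries, 35 members rose in WT and 35 in Rosa26-KO cells, 9 fell with ADAM9i, 33 had a smaller response with ADAM9i and 33 in Adam9-KO cells, and Mx1 in Rosa26-KO cells lost its call (edgeR adjusted p = 0.0767). The cause of the shifts below was not tested.
The count that fell with ADAM9i was 6, 11 by DESeq2 and 3 to 8 with a library left out. The count higher in Adam9-KO than in Rosa26-KO vehicle was 7, 11 by DESeq2 and 3 to 10 with a library left out.
The larger changes came from replacing the WT vehicle libraries, which stood apart. For the Rosa26-KO minus WT difference of responses, the counts of larger and smaller responses were 3 and 18 by limma on log2(FPKM + 1), 0 and 34 with Rosa26-KO vehicle as the WT baseline, where the contrast becomes that of the treated groups, and 0 and 4 with ADAM9i vehicle. By limma the median WT response was 1.371, that in Rosa26-KO cells 0.904, the inhibitor difference -1.508 and the knockout difference -1.042. By limma Rsad2 was at 0 and Mx2 at -0.027. Changes of sign are listed only for the members given in full. With Rosa26-KO vehicle the difference turned negative for Trim25 (-0.607), Irf9 (-0.654), Rsad2 (-2.12), Mx2 (-1.137), Oasl2 (-0.953) and Usp18 (-1.769). It also turned negative for Ifit1 (-0.408), Isg15 (-0.509), Stat2 (-0.227), Oasl1 (-0.864), Bst2 (-0.519) and Ifi27 (-0.553). Among those called with either baseline, the sign turned with ADAM9i vehicle for Rsad2 (-0.521), Mx2 (-0.22), Gbp2 (0.111), Usp18 (-0.589), Ifit1 (-0.152) and Oasl1 (-0.09).
ADAM9i vehicle set against Rosa26-KO instead of WT vehicle was higher for 21 members and lower for 1, with a median of 0.496, where 15.2% of all genes were called. Of the members given in full, the sign turned for Trim25 (0.377), Irf9 (0.425), Rsad2 (1.599), Mx2 (0.917), Oasl2 (0.793) and Usp18 (1.18). It also turned for Ifit1 (0.257), Isg15 (0.74), Oasl1 (0.774), Ifit2 (-0.14), Bst2 (0.597) and Ifi27 (0.395). Against WT vehicle that median lay between -0.163 and 0.002 with a library left out, the last without WT vehicle library 3. Rosa26-KO vehicle set against ADAM9i instead of WT vehicle was higher for 1 member. Of the members given in full, the sign turned for Parp9 (-0.244) and Gbp2 (-0.418), and the other members are not listed.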
